A study of Mus musculus with 12 samples.

Results

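Cldn4, Grhl3 and Prss22, 3 genes of the epithelial barrier, were followed through mammary tumors of MMTV-Neu mice. They were chosen by name, after their difference between treated and control tumors was known. They are 3 of the 2876 genes listed in at least 1 of the deposited tables, which hold 1589 genes for V-125 and 1784 for bexarotene, and all 3 members are among the 497 genes listed in both. RNA was sequenced from 12 tumors, 4 in each of 3 groups of mice that received the control diet, V-125 or bexarotene for 10 days, with either agonist mixed into the chow at 100 mg/kg diet. All of the mice carried the Neu (HER2) transgene, which the MMTV promoter drives mainly in mammary epithelium, so that the control tumors were transgenic too. V-125 and bexarotene are rexinoids, synthetic agonists of the retinoid X receptor (RXR), and 1 piece of each whole tumor was used, with no sorting of cells.

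An epithelial sheet separates compartments by tight junctions, which are built from claudins and occludin and sealed to the cytoskeleton by scaffold proteins. Grainyhead-like transcription factors activate junction and barrier genes in epithelia, and GRHL3 in particular is needed for the skin barrier and for closure of the neural tube. Serine proteases at the epithelial surface and their inhibitors process channels, receptors and adhesion proteins. In the mammary gland, claudins such as claudin-3, claudin-4 and claudin-7 belong to the luminal cells.

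All positions are on GRCm38. Grhl3 (ENSMUSG00000037188), the transcription factor of the group, lies on the minus strand at chr4:135541888-135573630 and has 16 exons. Cldn4 (ENSMUSG00000047501), which encodes the tight junction protein claudin-4, lies on the minus strand at chr5:134945119-134946934 and has 1 exon. Prss22 (ENSMUSG00000045027), which encodes an epithelial serine protease, lies on the minus strand at chr17:23993535-23998100 and has 6 exons. GENCODE gives 1 transcript for each, and no other annotated gene overlaps any of the 3, so reads of a neighbor are not counted on them through overlap.

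RefSeq promoter windows were found for 2 of the 3 members, Cldn4 and Grhl3. The 250 bases before each start are shown because RXR and the grainyhead factors act through DNA sites, and readers can see which such letters stand there. They run 5′ to 3′ on the strand of the gene, at chr5:134946935-134947184 for Cldn4 and chr4:135573633-135573882 for Grhl3 (GRCm38.p6). Capitals mark matches, on either strand, to the AP-1 motif TGANTCA, the nuclear receptor half-site AGGTCA and the GC box GGGCGG.
Cldn4: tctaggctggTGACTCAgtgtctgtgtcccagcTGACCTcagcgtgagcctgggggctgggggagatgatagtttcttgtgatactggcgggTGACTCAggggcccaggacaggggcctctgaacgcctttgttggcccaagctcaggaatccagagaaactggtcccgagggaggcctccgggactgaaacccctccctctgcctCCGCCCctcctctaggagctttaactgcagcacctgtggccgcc
Grhl3: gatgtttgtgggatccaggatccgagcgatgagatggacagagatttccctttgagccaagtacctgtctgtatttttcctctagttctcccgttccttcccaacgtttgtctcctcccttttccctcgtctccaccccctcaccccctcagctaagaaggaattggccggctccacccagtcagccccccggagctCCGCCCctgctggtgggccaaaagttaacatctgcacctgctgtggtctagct
The Cldn4 window held TGACTCA at 2 positions, from 240 to 234 and from 158 to 152 bases before the start, and TGANTCA occurred in 6.75% of 32851 such windows. It also held 1 nuclear receptor half-site on the opposite strand, 217 to 212 bases before the start, a motif in 14.0% of all windows. Both windows held the GC box once, on the opposite strand and within 53 bases of the start, as did 32.7% of all windows. The grainyhead motif AACNGGTT (1.79% of all windows) was searched on both strands and was not found in either window. Nor were the direct repeats DR1, DR4 and DR5 of the nuclear receptor half-site (0.164%, 0.0670% and 0.0883%). These repeats were searched on both strands with a looser half-site than AGGTCA, namely RGKTCA, where R is A or G and K is G or T. No motif overlapped another. A match is a run of letters and not a measured binding site.

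The depth of the control and V-125 tumors ranged from 15571690 to 22574865 reads counted on genes. The V-125 table gives each of these 8 tumors' reads, normalized counts (reads divided by 1 size factor per tumor) and FPKM (reads per kilobase of gene, scaled to the depth of the tumor), whereas group means of normalized counts were used for bexarotene. Both tables list only genes that the authors had selected on their difference from the control tumors, and both use the same 4 control tumors. The difference between treated and control tumors is therefore given for the 3 members as a description, without a test. Nothing in the labels ties the tumors to litters or to days of collection.

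In control tumors the 3 genes covered a wide range of levels on the FPKM scale, which accounts for gene length. Cldn4 was the most abundant, at 58.1 ± 7.76 FPKM (SD, n = 4), above 92.8% of the genes listed for V-125. Prss22 followed at 3.39 ± 1.79 FPKM, close to the middle of the listed genes, and Grhl3 stood lowest at 0.348 ± 0.245 FPKM. The order Cldn4, Prss22, Grhl3 held in each of the 8 tumors. Cldn4 exceeded Prss22 between 8.88-fold and 29.9-fold in control tumors, so these neighbors in the order did not come near each other. Prss22 exceeded Grhl3 between 2.72-fold and 23.8-fold in control tumors, but by 1.05-fold in V-125 replicate 1, where 1 read of Prss22 and 2 reads of Grhl3 cannot be set apart. In V-125-treated tumors the levels were 34.6 ± 13.4, 0.601 ± 0.431 and 0.104 ± 0.0782 FPKM for Cldn4, Prss22 and Grhl3 (SD, n = 4).

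Grhl3 had a low level in every tumor. Its normalized counts were 35.7, 12.7, 11.2 and 10.2 in control replicates 1 to 4, from 31, 11, 14 and 12 reads. In V-125 replicates 1 to 4 they were 2.04, 4.75, 10.9 and 3.17, from 2, 5, 11 and 3 reads. The groups overlapped, because V-125 replicate 3 lay above control replicate 4. The mean was 17.5 ± 12.2 in control tumors and 5.22 ± 3.96 in V-125-treated tumors (SD, n = 4), which is 29.9% of control. The fitted log2 fold change (V-125 over control, edgeR) was −1.70 with an SE of 0.70. Control replicate 1 carried much of this value, and without it the log2 fold change was −1.10 with an SE of 0.64. Summed over the 4 tumors of a group, there were 68 reads in control tumors (exact Poisson 95% interval 52.8 to 86.2) and 21 in V-125-treated tumors (13.0 to 32.1), intervals that cover counting error only.

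Grhl3 was nearly unread in the bexarotene tumors. The authors' group mean was 0.275 normalized counts with bexarotene and 17.4 in the control tumors of the same table. A mean this small can be resolved into whole reads of 4 tumors, if 4 steps taken from small means that recur in the table are each the worth of 1 read in 1 tumor. On that assumption, on which every read of a bexarotene tumor given here depends, it had 1 solution, in which 1 tumor held 1 read and the other 3 held 0. That single read gave a normalized count of 1.10 in its tumor. Under the same reading, 15 listed genes, Grhl3 and the barrier gene Cdsn among them, had the same bexarotene mean of 1 read in 1 and the same tumor. The sum over the bexarotene tumors was thus 1 read, against 68 in the control tumors, and no ratio is given for it. V-125 and bexarotene tumors were not tested against each other, because the tables were normalized separately.

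Cldn4, in contrast, had at least 490 reads in each of the 8 tumors. Normalized counts were 1895, 1747, 1698 and 2265 in control replicates 1 to 4. In V-125 replicates 1 to 4 they were 1233, 1209, 1569 and 518.2. Every V-125-treated tumor was below every control tumor, with 2 of them close together, replicate 3 nearest to the control tumors and replicate 4 far below the rest. The mean was 1901 ± 256.5 in control tumors and 1132 ± 441.2 in V-125-treated tumors (SD, n = 4), or 59.6% of control, and the edgeR log2 fold change was −0.75 with an SE of 0.29. The tumors varied more under V-125, with a coefficient of variation of 39.0% against 13.5% in control tumors. Without V-125 replicate 4 the log2 fold change was −0.51 with an SE of 0.18. With bexarotene the authors' mean was 588.6 against 1890 in the control tumors of that table, or 31.1% of control.

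Prss22 had few reads in treated tumors. Its normalized counts were 46.1, 143.3, 64.7 and 69.1 in control replicates 1 to 4, from 40, 124, 81 and 81 reads. In V-125 replicates 1 to 4 they were 1.02, 25.6, 12.9 and 17.98, from 1, 27, 13 and 17 reads. Again the groups did not overlap, with control replicate 2 at the top and V-125 replicate 1, at a single read, at the bottom. The mean was 80.8 ± 42.9 in control tumors and 14.4 ± 10.3 in V-125-treated tumors (SD, n = 4), or 17.8% of control, and the edgeR log2 fold change was −2.47 with an SE of 0.70. With bexarotene the authors' mean was 13.9 against 80.4, or 17.3% of control. On the same assumption it resolved into 0, 16, 16 and 25 reads in the 4 bexarotene tumors, or normalized counts of 0, 15.2, 17.6 and 23.0, which cannot be tied to replicate numbers. Summed reads were 326 in control tumors (exact Poisson 95% interval 291.6 to 363.4), 58 with V-125 (44.0 to 75.0) and 57 with bexarotene (43.2 to 73.9). In each treated group 1 tumor was at 0 or 1 read while the other 3 held at least 13.

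**Figure D1:**
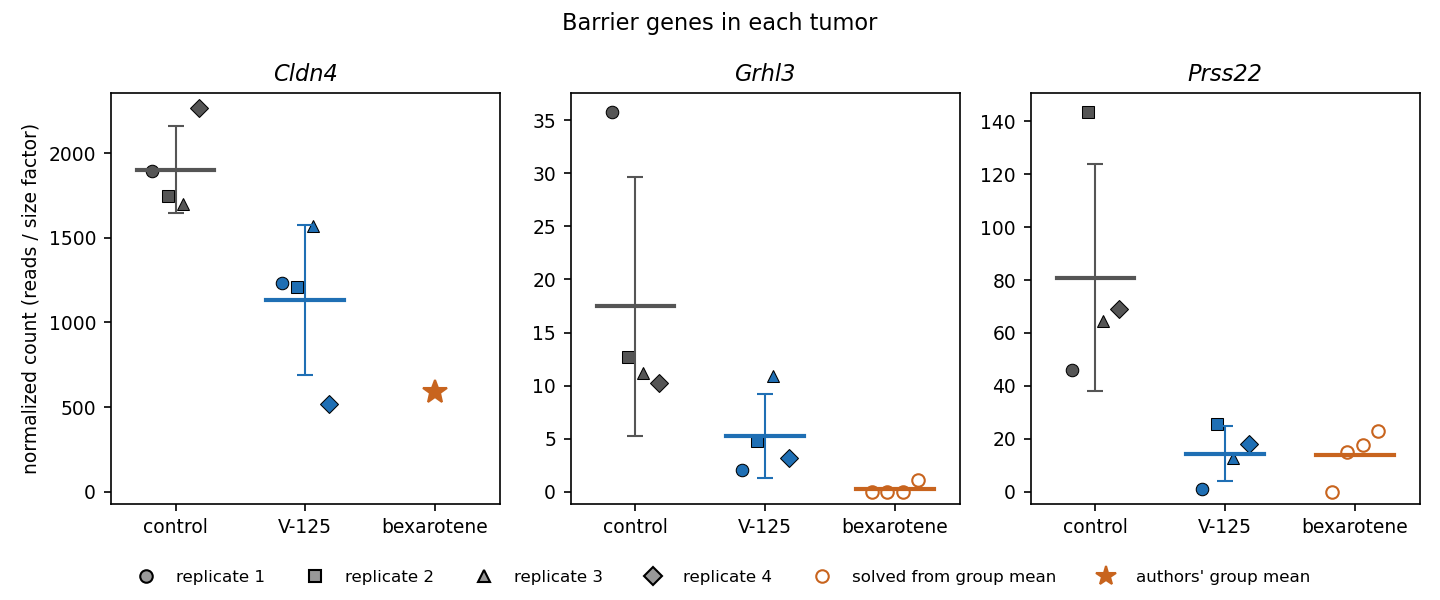
Normalized counts (linear axes) of Cldn4, Grhl3 and Prss22 in the tumors of each group; bars are means, whiskers are SD (n = 4, control and V-125), open circles are bexarotene tumors solved from the group mean and the star is the authors' bexarotene mean of Cldn4. Control and V-125 tumors are separate for Cldn4 and Prss22 and overlap for Grhl3, which lies between 0 and 1.10 in the bexarotene tumors.

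Set against all listed genes, the members' differences are the following. Groups that did not overlap, with V-125 below control, were found for 2 of the 3 members and for 17.6% of the 1589 listed genes. A mean lower by more than 1 on the log2 scale was found with V-125 for Grhl3 and Prss22 and for 22.0% of listed genes, and with bexarotene for all 3 members and for 28.4% of the 1784 listed genes. All 3 members passed the filter for low counts, as did 1333 listed genes in all. The members were selected on these contrasts, and the counts describe them only.

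Most listed luminal epithelial markers had lower means as well, and in whole tumors fewer cells of a type and less RNA per cell cannot be told apart. Of 12 luminal epithelial markers, 7 were listed for V-125. Epcam, Cdh1, Cldn3, Cldn7 and Kit had lower means with V-125, and Esr1 and Prlr had higher means. Of all genes listed for V-125, 48.6% had lower means. The summed normalized count of the 7 markers was 73043 to 102882 in control tumors and 56744 to 69224 in V-125-treated tumors. Only markers selected on their difference from control enter this sum, so its separation is a description of them. The luminal keratin genes Krt8 and Krt18 were not listed for V-125 and are not part of it. Epcam, at a mean of 42502 in control tumors, made up a large part of this sum. Esr1 and Prlr, at means of 325.6 and 1087 in control tumors, added little to it. None of the 7 markers was at 0 in any tumor. Of 10 basal and myoepithelial markers only Trp63 and Acta2 were listed. Their sum was 524.7 to 1032 in control tumors and 97.3 to 609.1 with V-125. Trp63 was at 0 in V-125 replicate 1, the tumor with the fewest reads of Prss22 and Grhl3. Acta2, in contrast, was at 609.1 in that tumor, above the range of 88.8 to 198.6 in the other V-125-treated tumors. With bexarotene, 5 of the 6 listed luminal markers had lower means, beside 56.7% of all genes listed for bexarotene. Krt8 and Krt18 were among these 5, at log2 ratios of −0.47 and −0.56. Of the basal and myoepithelial markers, 3 were listed for bexarotene. The basal keratin gene Krt17 had a mean of 0.275 against 13.1 in control tumors. Under the reading given for Grhl3, this mean is also 1 read, in the same tumor. The oxytocin receptor gene Oxtr had a log2 ratio of −0.87, whereas the smooth muscle myosin gene Myh11 was higher, at 1.52.

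The members were also expressed per 1000 normalized counts of Epcam, an epithelial adhesion molecule that was itself selected into the table as lower with V-125. Prss22 was at 1.98 ± 1.13 per 1000 Epcam in control tumors and at 0.446 ± 0.312 with V-125 (SD, n = 4), and the ranges, 0.862 to 3.55 and 0.0320 to 0.734, did not overlap. Its log2 ratio of means was −2.15 on this scale. For Cldn4 the values were 45.7 ± 9.91 and 34.6 ± 12.0 (SD, n = 4), the groups overlapped and the log2 ratio was −0.40. For Grhl3 they were 0.387 ± 0.189 and 0.159 ± 0.115 (SD, n = 4), with overlapping groups and a log2 ratio of −1.28. The separation of the groups was thus present for Prss22 and absent for Cldn4 on the Epcam scale. What part cell composition has in the differences was not tested.

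**Figure D2:**
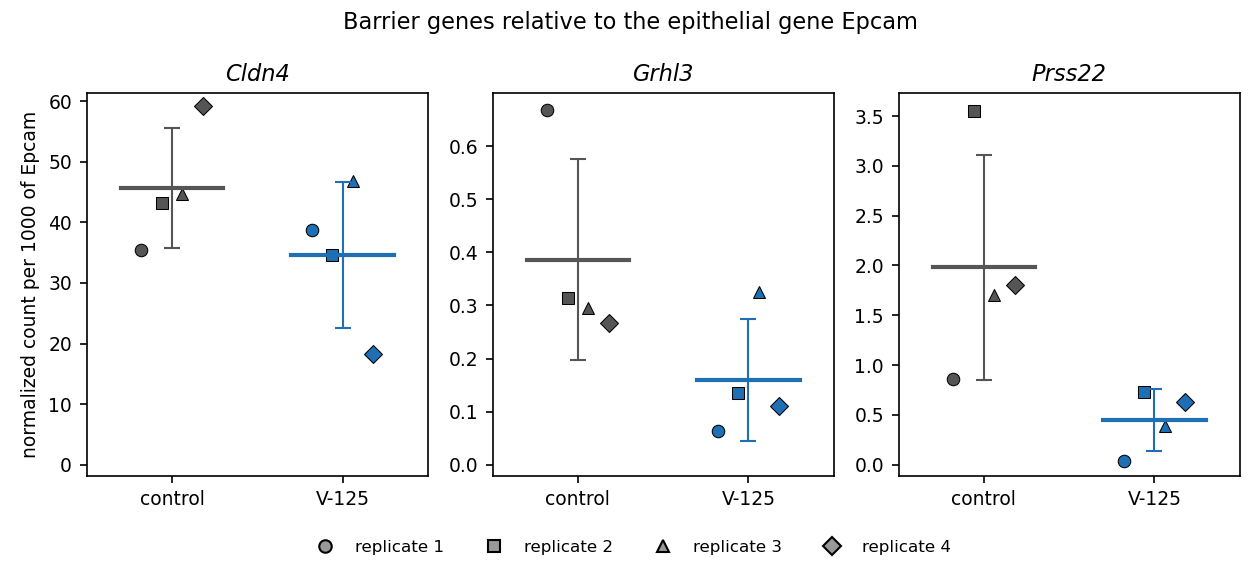
Normalized counts of the members per 1000 normalized counts of Epcam (linear axes) in control and V-125 tumors; bars are means and whiskers are SD (n = 4), and symbols give the replicate number. Groups are separate for Prss22 and overlap for Cldn4 and Grhl3.

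Markers of other cell types were among the listed genes too. Kdr, an endothelial receptor, had normalized counts of 251.3 to 497.7 in control tumors and 538.5 to 834.9 with V-125, the only listed marker of 9. Itgam, a myeloid integrin and the only listed one of 15 leukocyte markers, was at 65.5 to 89.0 in control tumors and at 30.7 to 60.6 with V-125. Leukocyte genes outside the 15 markers were listed for V-125 with both signs. Itgb2, Laptm5 and Irf8 had edgeR log2 fold changes of 1.03, 1.02 and 1.00, for example, and Lcp1 had −0.36. Itgam alone thus gives no direction for leukocyte genes. The mast cell gene Mcpt4 (1 of 8 markers) was at 0 to 0.799 in control tumors and at 0 to 29.6 with V-125, and the muscle gene Myh4 (1 of 7) was at 0 in control tumors and at 0 to 20.9 with V-125. Neither fibroblast nor adipocyte markers were listed for V-125. With bexarotene, 4 of 15 leukocyte markers and 1 of 9 fibroblast markers were listed with lower means and 2 of 9 adipocyte markers with higher means. Their part in the values of the members was not tested.

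The deviations of each tumor from the mean of its own group do not use the difference between groups, and with them the question was whether the 3 genes rise and fall together from tumor to tumor. No such relation was detected over the 8 tumors. On log2(normalized count + 1), Pearson's r for Cldn4 and Grhl3 was 0.33 (exact permutation p = 0.505, n = 8) and Spearman's rho was 0.024 (p = 0.983). For Cldn4 and Prss22 r was −0.26 (exact permutation p = 0.661, n = 8) and rho was −0.17 (p = 0.729). For Grhl3 and Prss22 r was 0.21 (exact permutation p = 0.670, n = 8) and rho was 0.33 (p = 0.469). After Benjamini-Hochberg adjustment over the 3 pairs the smallest p was 0.670 for r and 0.983 for rho (two-sided exact permutation within groups). Without the 2 tumors farthest from the median of the first gene, r became −0.25 for Cldn4 and Grhl3, −0.27 for Cldn4 and Prss22 and 0.90 for Grhl3 and Prss22, where control replicate 1 and V-125 replicate 3 were left out. With V-125 replicate 1 left out instead, r for Grhl3 and Prss22 was −0.57, so that the sign rested on single tumors.

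The tumors with the extreme values differed from gene to gene. Control replicate 1 was the highest control tumor for Grhl3 and the lowest for Prss22. Under V-125, replicate 1 was lowest for Grhl3 and Prss22, with deviations of −0.84 and −2.43 on the log2 scale, whereas the deviation of Cldn4 there was 0.23. Replicate 4 was lowest for Cldn4, with a deviation of −1.02, and that of Prss22 there was 0.80.

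**Figure D3:**
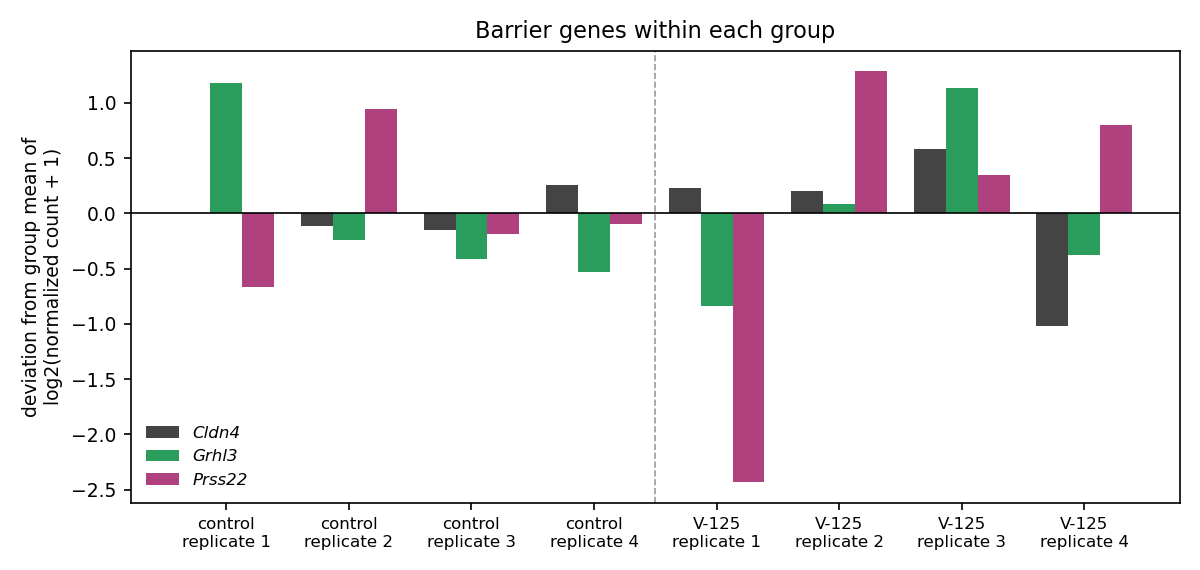
Deviation of log2(normalized count + 1) from the mean of the tumor's own group, for Cldn4, Grhl3 and Prss22 in 4 control and 4 V-125 tumors. Prss22 and Grhl3 are lowest in V-125 replicate 1, and Cldn4 in V-125 replicate 4.

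The listed genes whose within-group deviations were most like those of each member are given as a description, with no p, over the same 8 tumors and among genes with a mean normalized count of at least 50. Of 1143 such genes, Ttc9 (r = 0.99), Mex3a (0.94), Lbh (0.92), Cd276 (0.90) and Col5a3 (0.90) were most like Cldn4. Of 1144, the claudin gene Cldn7 (0.96), Kctd1 (0.94), the heat shock gene Hspa1b (0.93), P3h1 (0.92) and Fam3c (0.91) were most like Grhl3. Prss22 was followed most closely by the carbonic anhydrase gene Car2 (0.95), Gm5898 (0.94), Klhl13 (0.93), the P-cadherin gene Cdh3 (0.93) and Kank4 (0.92). Each r was picked as one of the highest over all these genes, and the points share library depth and the selection of the table. Of these 15 genes, 14 had lower means with V-125, beside 48.6% of all genes listed for V-125. Gm5898 had a higher mean, at a log2 ratio of 0.56. The 15 were picked by their r among genes selected on this contrast, so the count is a description.

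Other genes of the barrier were taken from 5 lists that hold 165 gene names with the 3 members (Pals1 and the loricrin gene are each entered under both their names). Of the 18 list genes listed for V-125, 16 had lower means, against 48.6% of all listed genes, and of 28 listed for bexarotene 23 had lower means, against 56.7% of all listed genes. Without the 3 members the counts were 13 of 15 and 20 of 25. The median log2 ratio of the list genes was −0.54 with V-125 and −0.76 with bexarotene, beside 0.36 and −0.56 for all listed genes. The medians were −0.45 and −0.74 without the 3 members. The lists were drawn up with results of these data known, and the tables hold only selected genes, so these shares are a description. With V-125, groups did not overlap for 7 of the 18 list genes below control, against 17.6% of all listed genes, and for 1 above it, against 21.1%. Leaving out the 3 members, groups did not overlap for 5 of 15 list genes below control and for 1 above it. In the edgeR quasi-likelihood fit over 1333 genes, 5.10% were called higher and 3.90% lower at an adjusted p under 0.05. Of the list genes, 1 was called higher, the claudin gene Cldn10, which is close to the share over all genes fitted.

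Among 47 tight junction names, 6 were listed for V-125, 4 with lower and 2 with higher means. Cldn7, a claudin of luminal cells, was at 3303 to 5703 in control tumors and at 2393 to 3368 with V-125, overlapping, with a log2 ratio of means of −0.54. With bexarotene it was at −0.79. Cldn10, which forms ion-selective paracellular channels, rose. Its normalized counts were 770.1, 506.3, 1369 and 313.3 in control replicates 1 to 4 and 3003, 1894, 1390 and 2748 in V-125 replicates 1 to 4, with no overlap. The edgeR log2 fold change was 1.61 with an SE of 0.43 and an adjusted p of 0.0462 (Benjamini-Hochberg over the 1333 selected genes). No gene was called when the p-values were adjusted over the 21951 annotated protein-coding genes instead. Cldn2, another channel-forming claudin, was at 89.4 to 621.4 in control tumors and at 298.2 to 1632 with V-125, overlapping, with a log2 ratio of 1.62 and an edgeR adjusted p of 0.0666. For bexarotene 10 tight junction genes were listed, 7 lower and 3 higher. Cldn23 was at a log2 ratio of −1.62, the polarity gene Pard6a at −0.89 and Cldn10 at 1.41. Cldn4 thus stood lowest of the listed tight junction genes in both tables, among genes chosen for their difference.

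The list of 26 epithelial transcription factors had 4 listed genes for V-125, all with lower means. Trp63, which marks basal cells, was at 80.7, 105.2, 27.2 and 74.3 in control replicates 1 to 4 and at 0, 25.6, 27.8 and 8.46 in V-125 replicates 1 to 4. The groups overlapped through control replicate 3 and V-125 replicate 3. Lmo4, a LIM-domain cofactor of mammary epithelium, was at 11185 to 12406 in control tumors and at 6577 to 10019 with V-125, with no overlap and a log2 ratio of −0.47 (edgeR adjusted p = 0.0612). With bexarotene Elf3 and Klf4, factors of differentiating epithelium, were at log2 ratios of −1.38 and −1.17. Grhl1, a close relative of Grhl3, was at 4269 against 3331 normalized counts, a log2 ratio of 0.36, so that the listed grainyhead-like genes had opposite signs with bexarotene.

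Of 36 names in the list of serine proteases and their inhibitors, which also holds the protease-activated receptor F2rl1 and subunits of the epithelial sodium channel, 4 appeared among the genes for V-125 and 7 among those for bexarotene, all with lower means, and Prss22 was the only one listed in both. Serpine2, a protease inhibitor, was at 772.3 to 2199 in control tumors and at 366.9 to 1451 with V-125, overlapping, with a log2 ratio of −0.82. With bexarotene, F2rl1 was at a log2 ratio of −0.78. The membrane protease Hpn was at −0.68, the channel subunit gene Scnn1b at −0.67 and the membrane-anchored protease Prss8 at −0.66. All were smaller in size than the log2 ratio of Prss22, −2.53.

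Adherens junction and desmosome genes (23 names) included 3 listed for V-125, all lower. Cdh3, which encodes P-cadherin, was at 157.9, 292.5, 113.4 and 251.8 in control replicates 1 to 4. In V-125 replicates 1 to 4 it was at 10.2, 107.3, 36.7 and 80.4. The groups did not overlap, and the log2 ratio was −1.80 (edgeR adjusted p = 0.0604), with −1.82 for bexarotene. V-125 replicate 1 was the lowest tumor for Cdh3, as it was for Prss22. For bexarotene 5 were listed, 4 lower and 1 higher. The desmosomal plaque gene Pkp1 was at −1.47, Nectin2 and Nectin4 at −0.77 and −0.74, and the desmosomal cadherin Dsg2 at 0.60. Of 33 names of the cornified envelope and the epidermal barrier, Asprv1, a skin aspartic protease, was at 150.2 to 254.8 in control tumors and at 23.3 to 102.3 with V-125, with no overlap and a log2 ratio of −1.41, and at −1.15 with bexarotene. Cdsn, which encodes corneodesmosin, had the bexarotene mean of 1 read in 1 tumor described above for Grhl3, against 7.06 in control tumors.

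**Figure D4:**
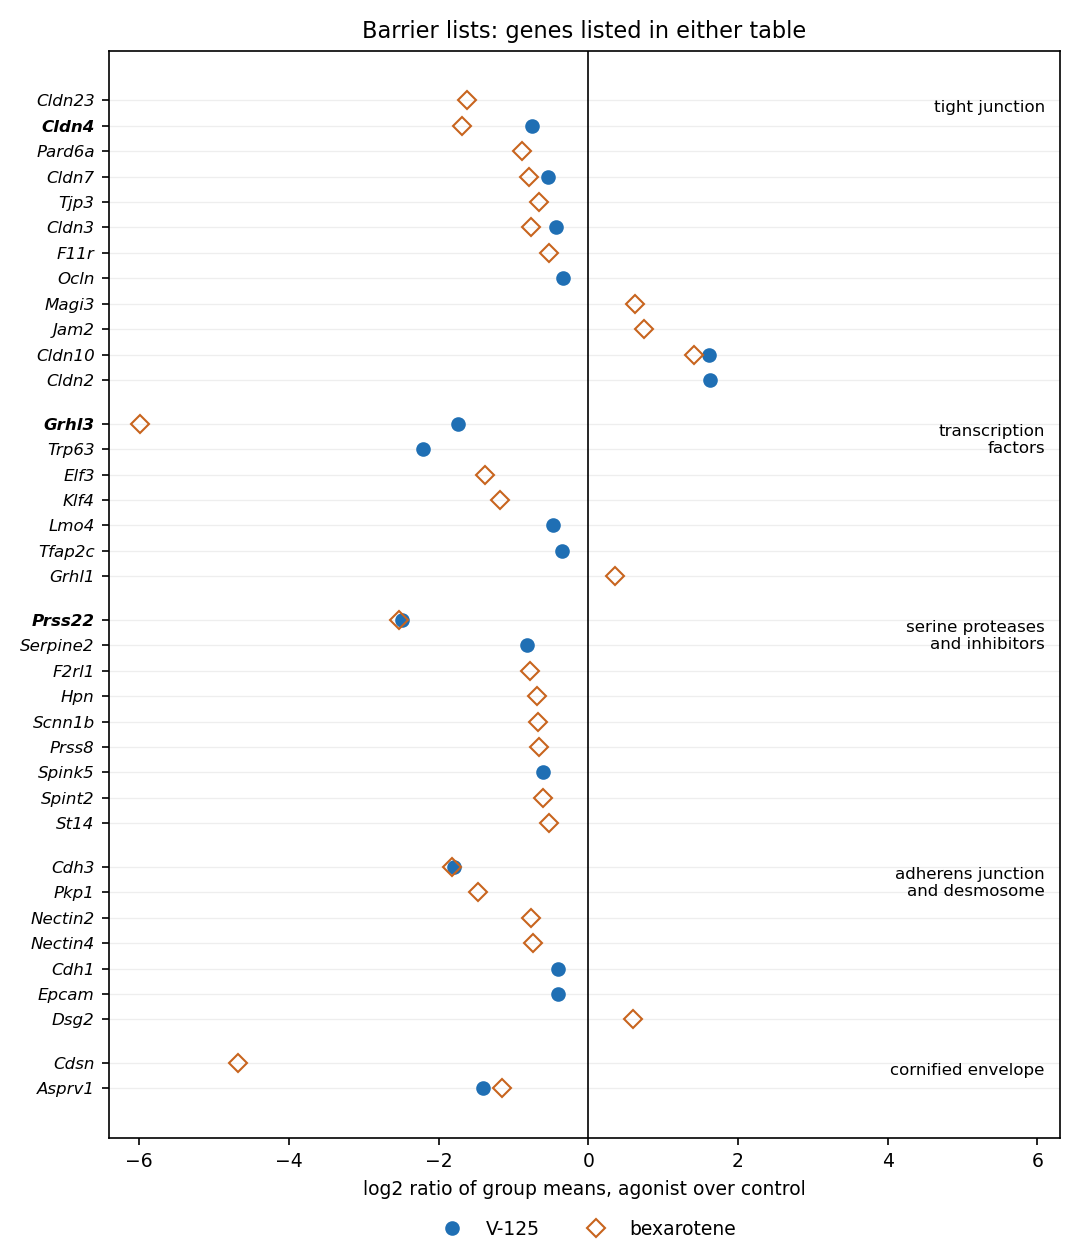
Log2 ratio of group means of normalized counts, agonist over control, for the genes of the 5 barrier lists that are listed for V-125 (filled circles) or bexarotene (open diamonds); members are in bold and Prss27, at 0 in all V-125 tumors, is not drawn. Most points lie left of 0, with Cldn10, Cldn2, Jam2, Magi3, Dsg2 and Grhl1 to the right, and the bexarotene values of Grhl3 and Cdsn rest on 1 read.

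Genes next to the members on the chromosome were looked at after their values had been seen. Within 500 kb of Cldn4, 4 of 27 protein-coding genes were listed in either table, of Grhl3 6 of 20 and of Prss22 8 of 47, while 10.8% of all annotated protein-coding genes were listed. The claudin gene Cldn3 lies 39.3 kb from Cldn4. It was at 10337 to 15362 normalized counts in control tumors and at 8005 to 10979 with V-125, overlapping, with log2 ratios of −0.43 with V-125 and −0.76 with bexarotene. Prss27, another epithelial serine protease, lies 40.04 kb from Prss22. It was at 0, 10.4, 4.79 and 5.98 in control replicates 1 to 4 and at 0 in all 4 V-125-treated tumors, so that the groups shared the value 0. Tnfrsf12a, a receptor of the tumor necrosis factor family 316.1 kb from Prss22, had log2 ratios of −0.91 with V-125 and −1.38 with bexarotene. None of the 6 listed genes near Grhl3 was listed in both tables.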

How the data were processed

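Whole-tumor RNA from 12 MMTV-Neu tumors was sequenced from poly(A) libraries. The submitters' processing notes name STAR 2.6.1d, featureCounts 1.5.0-p3 and limma, and the genome build is not given in the sources used here. Positions are those of the deposited table, in which 1532 of 1589 genes match GENCODE on GRCm38. For V-125 and control tumors the authors deposited raw read counts, normalized counts (a signal: count divided by 1 size factor per tumor) and FPKM, and 15571690 to 22574865 reads per tumor were counted on genes. For bexarotene the deposited signal is the authors' group mean of normalized counts, with no SD. Between the tables, the control means of 491 shared genes differed by a ratio of 0.989 to 0.997. Both tables also hold the authors' log2 fold changes and p-values, and the bexarotene table a rescaled fold change and a −log10 of adjusted p-values; these comparison columns were not used.

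The members and the gene lists were chosen with earlier results of these data known. Read counts of the V-125 table (1589 genes) entered edgeR 4.0.16 (R 4.3.3, filterByExpr, quasi-likelihood test, offsets from the deposited size factors, Benjamini-Hochberg over the 1333 genes kept). The fit rests on genes selected on the same contrast. Its test sets the difference between groups against the spread between tumors, and its p-values are conditional on that selection. Pairs of members were compared by exact permutation of tumors within groups (Python 3.11.15, numpy 2.4.6, scipy 1.17.1). Named genes are the members, the list genes with the largest log2 ratio (6 per list), listed cell type markers and the 5 genes most like each member, apart from the neighboring genes.

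Chosen after the values had been seen, small bexarotene means were resolved into whole reads, with the worth of 1 read in each of the 4 tumors inferred from small means that recur in the table. All 288 means under 20 had 1 solution. The same solving step gave the deposited reads for 60 of 60 control means. For these, however, the worth of 1 read was fitted from the deposited control reads themselves. The inference of that worth from recurring means was therefore not tested. The Cldn4 mean is too large to be resolved into whole reads. The scale per 1000 Epcam and the genes within 500 kb were also added then. Motifs were searched in RefSeq promoter windows. Alternatives were DESeq2 1.42.0, limma-voom (limma 3.58.1), TMM factors, read totals, no filter, a replicate block, other pseudocounts, FPKM and leaving out each tumor in turn.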

Additional observations from a re-analysis of the deposited data

Results flagged for a closer look

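In groups of 4 tumors, a value was singled out when its gap to the nearest other tumor took up most of the range of the group (Dixon's 95% criterion, which chance meets in about 1 of 20 groups). Of 52 groups over 26 genes, 7 held such a value. Grhl3 was at 35.7 normalized counts in control replicate 1, with the other 3 control tumors between 10.2 and 12.7. The same tumor stood apart for the luminal genes Cldn7, at 5703 against 3303 to 3663, and Epcam, at 53468 against 37941 to 40361. Control replicate 1 therefore had high values of 3 epithelial genes, while its Cldn4 value, 1895, lay within the control range and its Prss22 value, 46.1, was the lowest of the control tumors. In the bexarotene tumors, Grhl3 was at 1.10 in 1 tumor and at 0 in the other 3, a difference of 1 read. Asprv1 was at 23.3 in V-125 replicate 4, the tumor with the lowest Cldn4 value, with the other 3 between 89.3 and 102.3. The mast cell gene Mcpt4 was at 29.6 in V-125 replicate 1 and at 0.799 in control replicate 3, the latter from 1 read.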

How the results depend on the processing

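The log2 fold changes of the members kept their sign under DESeq2, limma-voom, TMM factors, read totals, the replicate block and every left-out tumor. The members were chosen with this difference in the same tumors known, so the kept sign is no independent support. Leaving out 1 tumor gave −0.95 to −0.51 for Cldn4, −2.33 to −1.10 for Grhl3 and −2.91 to −2.05 for Prss22, and the replicate block gave −0.83, −1.66 and −2.70. Using the control means of the V-125 table could move the bexarotene ratios only slightly, because they come from the same control tumors. For Cldn4 the log2 ratio went from −1.68 to −1.69.

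The number of genes called over the table was unstable. Beside 52 lower and 68 higher, DESeq2 called 473 and 517, the replicate block 2 and 17, and adjustment over all 21951 protein-coding genes 0 and 0 (464 and 489 at an unadjusted p under 0.05). With 1 tumor left out, 0 to 121 were lower and 0 to 116 higher, with the highest counts without control replicate 3. Both counts were 0 without control replicate 2, V-125 replicate 2 or V-125 replicate 4, they were 0 and 1 without control replicate 4, and 6 and 23 without control replicate 1. The cause was not tested. Genes with V-125 below control and no overlap numbered 279, or 306 to 437 with 1 tumor left out, which fewer tumors allow by construction, and those above control 335, or 382 to 431.

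Among the pairs, r for Grhl3 and Prss22 was −0.16 with a pseudocount of 10 and 0.87 with deviations also centred on the replicate number (replicate block). That centring makes the deviations of same-numbered tumors equal and opposite. The tumors are then not separate points, and no p is given for this r. Leaving out 1 tumor gave −0.57 to 0.54 for this pair, −0.032 to 0.50 for Cldn4 and Grhl3 and −0.41 to 0.048 for Cldn4 and Prss22. Same-numbered tumors correlated between −0.20 and 0.19 in their deviations over 1144 genes, so that the numbers were not taken to pair them. Depth limits Grhl3, with 1 to 31 reads where any were counted.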
